A study of Mus musculus with 15 samples.

Results

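Reprogrammed cells were set against resting duct cells: the 3 libraries of reprogrammed hepatocytes from mice given diethoxycarbonyl-dihydrocollidine (DDC) and the 3 libraries of biliary cells from untreated mice, 6 of the 15 libraries of the series. The libraries were picked by their labels, while the comparison itself was set with earlier results of these data known. The question was how far a hepatocyte that has taken on duct features under injury stands from a duct cell that was never injured. All libraries are ATAC-seq, in which a transposase cuts and tags open chromatin, so that reads pile up where DNA is accessible. The other libraries (3 each of DDC biliary cells, DDC hepatocytes and untreated hepatocytes) serve here only as side values. Per the labels, cells were sorted straight from mouse liver with no growth in culture. The sources used here give no strain, genotype, age, sex, length of the DDC diet or sort markers, nor how a reprogrammed cell was recognised. The labels do not say that libraries of 1 group came from separate mice, so every p-value measures only the spread between these libraries, which may be technical. Reprogrammed and untreated biliary cells differ in 2 things at once, their cell of origin and the DDC diet, and the parts of these in any value below cannot be told apart.

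Bile ducts are lined by biliary epithelial cells (cholangiocytes), which carry keratins 7 and 19, the transcription factor Sox9, the adhesion molecule Epcam and the secreted phosphoprotein osteopontin (Spp1), and which add water and bicarbonate to bile. Hepatocytes make albumin, clotting and transport proteins and bile acids under Hnf4a and related factors. In chronic duct injury, of which the DDC diet is a standard mouse model, some hepatocytes lose part of this program and turn on duct genes, while injured ducts also send out chemokines that draw in inflammatory cells.

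The value of a gene is the summed accessibility of the deposited regions tied to it. Each region was tied to 1 gene: the gene whose body it overlaps most or, failing any overlap, the nearest within 50 kb. A gene can therefore lack a region that touches its body. The value is given in nuclear RPM: reads scaled to a total of 1000000 over all regions after the mitochondrial regions were dropped. A gene's value measures open chromatin at and near it, not its expression, and in such bulk samples fewer cells of a kind and less signal per cell cannot be told apart. A gene passed, and is said below to have risen or fallen, when its difference in log2(nuclear RPM + 1) had a Benjamini-Hochberg adjusted p under 0.05 in limma across all genes tested. Differences are reprogrammed minus untreated biliary, given as estimate ± SE, and levels are listed for libraries 1, 2 and 3 of each group in that order.

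The reprogrammed libraries held 4756891 to 9829886 nuclear reads and the untreated biliary ones 2439831 to 4389653. Mitochondrial reads made up 4.69% to 14.8% and 13.7% to 21.9% of reads in these groups. Both groups carried open chromatin at duct markers: Epcam read 141, 129.8 and 107 in the reprogrammed and 113, 122 and 144 in the untreated biliary libraries, against 26.8 to 28.2 in DDC hepatocytes. One library in each group stood nearer to the hepatocyte side. Cps1, the first enzyme of the hepatocyte urea cycle, read 102, 68.2 and 231 in the reprogrammed and 311, 94.7 and 68.1 in the untreated biliary libraries, against 562 to 1262 in DDC hepatocytes, so that reprogrammed library 3 and untreated biliary library 1 were high (called the 2 high-Cps1 libraries below). Over 23 hepatocyte enzymes the summed level was 1017, 886 and 1443 in the reprogrammed and 1986, 950.5 and 763 in the untreated biliary libraries. Results on hepatocyte genes are therefore also given without these 2 libraries, an alternative chosen after seeing the data.

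The groups differed at many genes and in both directions. Of 16065 genes tested 2854 passed (17.8%), of which 1698 were higher (10.6% of all tested) and 1156 lower (7.2%) in reprogrammed cells. Most of the differences were modest: 726 of the higher and 278 of the lower genes differed by 2-fold or more, and 85 and 25 by 4-fold or more. The median over all genes was 0.04. All 3 reprogrammed libraries lay above all 3 untreated biliary ones at 3030 genes (18.9%) and below them at 2326 genes (14.5%). Among genes that passed, 1604 of the 1698 higher and 1096 of the 1156 lower ones had groups that did not overlap. On the deposited scale, which keeps mitochondrial reads in the total, the median shifted to 0.18 and 83% of 3264 calls were higher, against 59.5% here. Leaving out 1 library gave 1554 to 3772 calls, with 1554 without reprogrammed library 1, 1644 without untreated biliary library 3 and 1799 without untreated biliary library 2. A fit that shares its spread over all 15 libraries called 421, and it ended the call of 71 of the 107 passing genes chosen by the naming rule. Regions at gene ends alone ended the call of 31 of these, and regions in gene bodies alone that of 15. Calls lost under both include those of Bcl3, Tgfbi, Nrarp, Fgfr3, Ttr, Otc, G6pc, Cebpa, Fosl2, Dll1, Mfng, Cdkn1a, Ccnd1 and Ccnb1, and of Zeb2 and Snai1, named beyond the rule. DESeq2 did not call Hnf4a, Hpx, Trf or Ttc37, nor Tff1, also named beyond the rule. On the deposited scale the falls described below at Foxa1, Prox1, Ttr, Jun, Ccn1, Amotl2, Dock5, Jag1, Ccnb1, Abcb1a and Map2 did not pass.

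**Figure D1:**
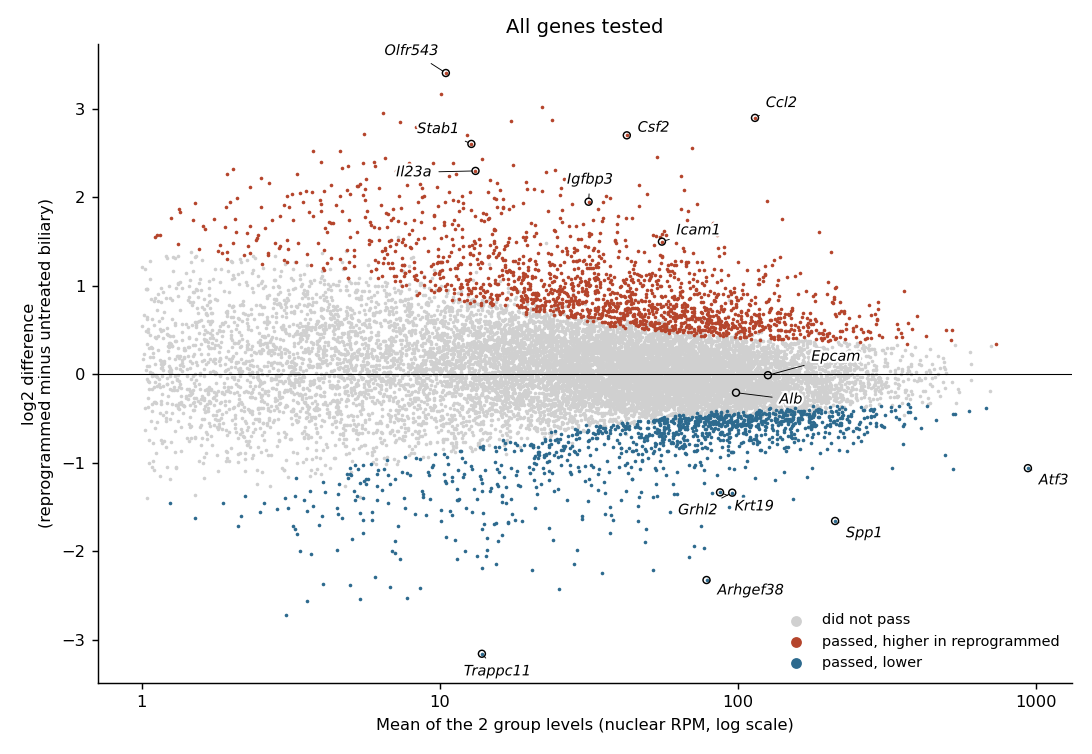
Each point is 1 of 16065 genes, with the mean of the 2 group levels in nuclear RPM on a log axis and the log2 difference, reprogrammed minus untreated biliary, on the vertical axis. Red points passed and were higher (1698), blue points passed and were lower (1156), grey points did not pass. Ccl2, Csf2 and Icam1 lie high among well-covered genes, Spp1, Krt19, Grhl2 and Arhgef38 lie low, and Epcam and Alb lie near 0.

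Spp1 and Krt19, the duct markers named for this comparison, were less open in reprogrammed cells, and Ccl2, the chemokine that draws monocytes, was far more open, while Alb did not differ beyond its spread. Spp1 read 101, 86.98 and 118 nuclear RPM in the reprogrammed and 306, 322 and 336 in the untreated biliary libraries. No library overlapped, and Spp1 fell by 1.66 ± 0.13 on the log2 scale (adjusted p = 6.8e-08). DDC biliary libraries read 135 to 225 and DDC hepatocyte libraries 25.9 to 39.7, so the reprogrammed level lay between those of DDC ducts and DDC hepatocytes. Krt19, the duct keratin, read 55.2, 43.2 and 46.5 against 89.2, 135 and 153. Every reprogrammed library was below every untreated one, and Krt19 fell by 1.33 ± 0.18 (adjusted p = 2.3e-05). In the fit over all 15 libraries Krt19 did not pass (adjusted p = 0.18), while Spp1 and Ccl2 did (0.0056 and 0.00066). In DDC biliary cells it read 119 to 144, above all 3 reprogrammed libraries. Ccl2 read 214, 161 and 231 in the reprogrammed and 29.8, 25.4 and 23.01 in the untreated biliary libraries. That was the widest gap of the 4 markers, with a rise of 2.90 ± 0.17 (adjusted p = 2.0e-10). DDC biliary cells read 141 to 234 at Ccl2 and DDC hepatocytes 80.6 to 126, both above every untreated biliary library. Alb read 83.3, 61.3 and 127 against 159.8, 71.3 and 88.2, with a difference of -0.21 ± 0.24 (adjusted p = 0.60). The groups overlapped at Alb, and the higher library of each was the 1 that also stood high for Cps1. DDC hepatocytes read 539.7 to 930.4, several times above any of the 6 libraries compared.

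**Figure D2:**
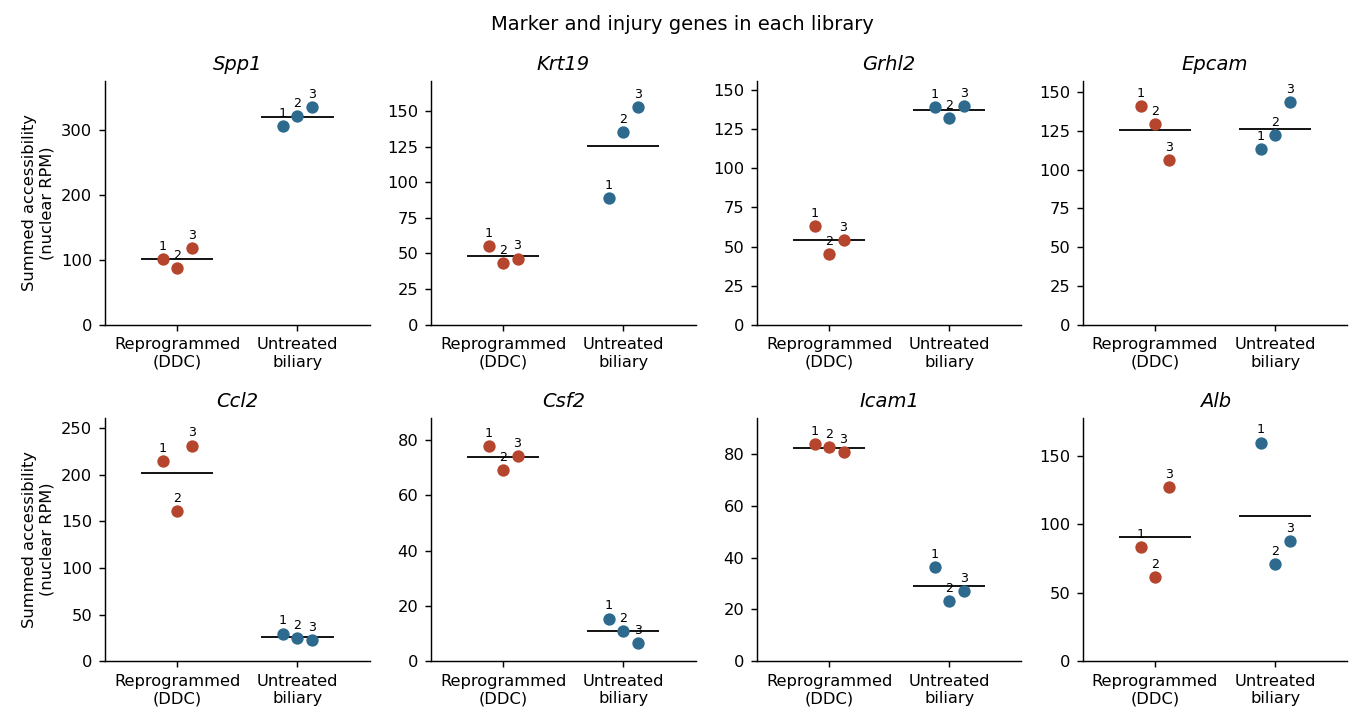
Summed accessibility (nuclear RPM, vertical axis from 0) of 8 genes in the 3 reprogrammed (red) and 3 untreated biliary (blue) libraries, numbered by replicate, with a bar at each group mean. Spp1, Krt19 and Grhl2 are lower and Ccl2, Csf2 and Icam1 higher in every reprogrammed library, while Epcam and Alb overlap.

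The fall at Spp1 came from several separate regions. The widest drop was in the region over the gene itself, chr5:104436440-104444729 (mm10), which read 23.7, 25.7 and 44.1 against 163, 141 and 176 and fell by 2.37 ± 0.20 (adjusted p = 1.1e-08). A region 34731 bp from the gene, chr5:104399090-104400380, read 38.7, 23.6 and 29.4 against 65.7, 82.4 and 81.3 and fell by 1.32 ± 0.20. Of the 8 regions tied to Spp1, 4 fell and 4 did not pass. The promoter region, which covers the gene start, fell by 1.33 ± 0.23. Because it is the stretch of this gene closest to where transcription begins, the RefSeq promoter window of Spp1 (GRCm38.p6, 250 bases before to 50 after the start, chr5:104434861-104435160, plus strand) is shown. It holds no match to TGANTCA, the core letters of the AP-1 motif searched on both strands, so it carries no capitals.
Spp1 promoter: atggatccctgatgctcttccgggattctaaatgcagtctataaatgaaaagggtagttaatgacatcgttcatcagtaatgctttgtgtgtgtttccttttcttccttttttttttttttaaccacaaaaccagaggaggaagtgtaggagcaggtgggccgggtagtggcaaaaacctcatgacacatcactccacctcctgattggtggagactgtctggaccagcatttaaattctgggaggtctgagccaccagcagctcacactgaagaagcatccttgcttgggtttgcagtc
At Ccl2 all 5 regions tied to the gene rose. The region over the gene, chr11:82031909-82040920, read 147, 107 and 148 in the reprogrammed and 13.6, 14.8 and 15.5 in the untreated biliary libraries, a rise of 3.10 ± 0.20 (adjusted p = 2.0e-10). The other 4 lie 14958 to 27981 bp from the gene and rose by 1.78 to 3.21. Krt19 fell at the region over the gene, chr11:100136033-100146661, by 1.38 ± 0.19, and at 1 more region 9248 bp away by 1.22 ± 0.35.

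Among biliary identity genes a few fell, while most duct keratins, adhesion genes and factors did not pass. Of 26 genes tested 4 fell (15.4%, against 7.2% of all genes) and 2 rose (7.69%, against 10.6%), with a median of -0.14 against 0.04 over all genes. On the deposited scale the median of this list was 0.02. Grhl2, a transcription factor of epithelial junctions, read 62.9, 45.3 and 54.2 in the reprogrammed and 139, 132 and 139.7 in the untreated biliary libraries. The groups did not overlap at Grhl2, which fell by 1.34 ± 0.15 (adjusted p = 3.2e-06), and DDC biliary cells read 123 to 143. Krt23, a keratin seen in injured and ductular epithelium, read 137, 93.2 and 125 against 150.00, 216 and 236 and fell by 0.75 ± 0.17. Cldn4 and Itgb6 moved up. Cldn4, a tight-junction claudin, read 93.2, 59.3 and 85.3 against 25.3, 36.5 and 18.5, a rise of 1.56 ± 0.22 (adjusted p = 4.0e-05). Its groups did not overlap, and DDC biliary cells read 93.96 to 141. The region over Cldn4 itself was tied to the neighbour Mettl27, is not in this value and rose by 0.72 ± 0.18. Itgb6, the integrin subunit that frees latent TGF-beta, rose by 0.63 ± 0.17, but the call was lost without reprogrammed library 1 (adjusted p = 0.088), without reprogrammed library 3 (0.10) or without untreated biliary library 3 (0.063). Without reprogrammed library 2 the risen members numbered 4. The 20 members that did not pass include Sox9, a textbook duct factor. It read 165, 139 and 171 against 122, 116 and 127 (0.37 ± 0.13, adjusted p = 0.056), with every reprogrammed library the higher. Epcam, whose levels are given above, had a difference of -0.01 ± 0.15, and Krt7 read 49.2, 30.2 and 40.6 against 51.01, 49.6 and 44.6 (-0.29 ± 0.19). The list summed to 3754, 3048 and 3692 in the reprogrammed, 3708, 4034 and 4177 in the untreated biliary, 4422 to 4926 in the DDC biliary and 1742 to 2007 in the DDC hepatocyte libraries.

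Of 15 duct secretion and transport genes 4 rose (26.7%, against 10.6% of all genes) and 1 fell (6.67%, against 7.2%), with a median of 0.16. The direction depended on the regions used: with gene ends alone none rose, 2 fell and the median was -0.06, and in the fit over all 15 libraries none rose and 1 fell. Cftr, the chloride channel of bile secretion, read 90.2, 86.4 and 69.8 in the reprogrammed and 53.3, 47.1 and 57.4 in the untreated biliary libraries and rose by 0.63 ± 0.16. Aqp1, a water channel, rose by 0.94 ± 0.23 from 16.2, 20.1 and 14.6 to 42.2, 28.9 and 30.3. Kcnn4, a calcium-gated potassium channel, read 145, 139 and 136 against 88.4, 81.6 and 91.1 and rose by 0.68 ± 0.14, though regions at the gene's ends alone gave -0.33. Ggt1, gamma-glutamyl transferase, rose by 0.99 ± 0.30, and lost the call on leaving out any reprogrammed library or untreated biliary library 2 (adjusted p 0.066 to 0.12). Without reprogrammed library 1 only 1 secretion gene rose, with Cftr at an adjusted p of 0.074 and Aqp1 at 0.086; without untreated biliary library 2 there were 2, with Cftr at 0.060. Atp1b1, a subunit of the sodium pump, read 190.3, 184 and 215 against 319, 283 and 300.02 and fell by 0.61 ± 0.12 (adjusted p = 0.0013), under every alternative run. The secretin receptor Sctr read 97.7, 72.5 and 94.6 against 100.1, 97.1 and 101 and did not pass (-0.18 ± 0.15). Among 12 cilium and cystic disease genes Pkhd1, the gene of fibrocystin, was the 1 that passed. It read 152, 117 and 158 against 212, 226 and 196, did not overlap and fell by 0.58 ± 0.14 (adjusted p = 0.0050).

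Hepatocyte genes did not separate the groups as a block. Against 10.6% of all genes that rose and 7.2% that fell, of 21 secreted-protein genes 5 rose and 1 fell (23.8% and 4.76%, median 0.34), of 23 metabolic enzymes 3 rose and 3 fell (13.0% each, median 0.08, but -0.18 by edgeR and -0.20 by DESeq2), and of 20 hepatocyte transcription factors 4 rose and 2 fell (20% and 10%, median 0.15). Hnf4a, the master factor of hepatocytes, read 167, 142 and 178 in the reprogrammed and 142, 66.4 and 41.2 in the untreated biliary libraries. Untreated biliary library 1 nearly reached the lowest reprogrammed library at this gene, and Hnf4a rose by 1.13 ± 0.26 (adjusted p = 0.0033). The rise at Hnf4a ranged from 0.73 without untreated biliary library 3 to 1.61 without untreated biliary library 1, and gene ends alone gave 0.60 (adjusted p = 0.063). DDC hepatocytes read 309.7 to 406. Tbx3, a factor of liver growth, rose by 0.91 ± 0.20, and Cebpa and Nr1h4, the bile acid receptor gene, by 0.46 ± 0.14 and 0.50 ± 0.14. Foxa1 and Prox1, both factors of liver development, fell by 0.47 ± 0.13 and 0.44 ± 0.12. Itih1, an inhibitor protein of plasma, read 44.6, 32.2 and 49.6 against 21.2, 12.3 and 12.98 and rose by 1.41 ± 0.25 (adjusted p = 0.00035). Hpx, the heme carrier hemopexin, read 66.4, 42.4 and 245 against 54.8, 14.8 and 14.1, rising by 1.92 ± 0.44 with reprogrammed library 3 far above the others and overlapping groups. Trf (transferrin) and Hp (haptoglobin) rose by 1.04 ± 0.23 and 0.86 ± 0.22. The fits on gene ends or gene bodies alone did not test Hp, so almost all of its value comes from beyond the gene. DESeq2 did not call Hnf4a, Hpx or Trf (adjusted p = 0.21, 0.12 and 0.15). Ttr, the thyroxine carrier transthyretin, read 103, 93.2 and 141 against 179.8, 158 and 139 and fell by 0.51 ± 0.16 with groups that overlapped by 1 library. Among the enzymes Glul, glutamine synthetase, read 82.9, 86.2 and 80.1 against 136, 143 and 129 and fell by 0.70 ± 0.14 (adjusted p = 0.00093). Slco1b2, a bile acid and drug uptake carrier, read 12.2, 8.04 and 15.8 against 36.3, 31.6 and 22.1 and fell by 1.27 ± 0.27. Otc, of the urea cycle, read 7.56, 5.90 and 11.6 against 3.02, 2.87 and 0.683 and rose by 1.61 ± 0.41. Abcb11, the bile salt pump, and Hsd17b13, of lipid droplets, rose by 0.90 ± 0.28 and 0.65 ± 0.21, and G6pc, which releases glucose, fell by 0.78 ± 0.24. Gene ends alone gave -0.16 for Abcb11, and each of these 3 lost its call without 3 or more of the single libraries, reprogrammed library 1 among them (adjusted p = 0.082, 0.15 and 0.064).

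These hepatocyte counts hung on single libraries. Without untreated biliary library 1 the risen secreted-protein genes numbered 11, the risen enzymes 9 and the risen factors 6; without reprogrammed library 3 they numbered 3, 0 and 2. Without both, 8 of the secreted-protein genes rose and 1 fell, 6 enzymes rose and 2 fell, and 5 factors rose and 2 fell. Leaving out untreated biliary library 2 or untreated biliary library 3 gave 3 and 4 risen secreted-protein genes and 1 and 0 risen enzymes, and without reprogrammed library 1 there was 1 risen enzyme. Single genes behaved alike: Hp did not pass without reprogrammed library 3 (adjusted p = 0.059) or untreated biliary library 2 (0.081), and Otc did not pass without reprogrammed library 3 (0.063) or untreated biliary library 3 (0.056). Ttr lost its call without reprogrammed library 1, reprogrammed library 2, untreated biliary library 1 or untreated biliary library 2 (0.059 to 0.11). Nr1h4 lost it without reprogrammed library 3 (0.085), without untreated biliary library 3 (0.074) or without both high-Cps1 libraries (a difference of 0.35 with adjusted p = 0.105), Cebpa without reprogrammed libraries 1 or 3 or untreated biliary libraries 2 or 3 (0.062 to 0.14), Foxa1 without untreated biliary library 3 (0.11) and Prox1 without reprogrammed library 2 (0.056). G6pc differed by -0.38 without untreated biliary library 1 and by -0.44 without both high-Cps1 libraries, and passed in neither (adjusted p = 0.16 and 0.12). Without reprogrammed library 3 the rise at Hpx was 1.19, and without untreated biliary library 3 Hsd17b13 differed by 0.39 and did not pass (adjusted p = 0.25). The secreted-protein list summed to 1356, 1149 and 2099 in the reprogrammed and 1693, 985 and 1062 in the untreated biliary libraries, against 4645 to 6299 in DDC hepatocytes and 768 to 1149.8 in DDC biliary cells.

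Chemokine and cytokine genes, a list chosen with earlier results known, rose together. Of 23 tested 14 rose and none fell, against 10.6% of all genes that rose, with a median of 0.81. Besides Ccl2, Csf2, the growth factor GM-CSF, read 77.9, 68.97 and 74.2 in the reprogrammed and 15.5, 11.1 and 6.61 in the untreated biliary libraries. Its groups lay far apart, with a rise of 2.70 ± 0.24 (adjusted p = 2.3e-07), and DDC biliary cells read 78.8 to 114. The fits on gene ends or gene bodies alone did not test Csf2. Almost all of its value thus comes from regions beyond the gene, tied to it as the nearest within 50 kb. Icam1, which lets leukocytes adhere, read 83.8, 82.4 and 80.5 against 36.3, 23.4 and 27.1, a rise of 1.499 ± 0.18 (adjusted p = 7.6e-06). Tnf read 95.03, 74.8 and 69.4 against 34.8, 31.97 and 26.9 and rose by 1.32 ± 0.18, with DDC hepatocytes at 0 to 25.2. Il23a, a subunit of interleukin 23, read 30.3, 16.5 and 21.2 against 3.78, 4.10 and 3.19 and rose by 2.30 ± 0.31 (adjusted p = 2.3e-05). The monocyte chemokine Ccl7 rose by 2.15 ± 0.33, the macrophage growth factor Csf1 by 1.02 ± 0.16, the neutrophil chemokine Cxcl1 by 0.81 ± 0.14, and the adhesion molecule Vcam1 by 1.06 ± 0.24. Lcn2, a siderophore-binding protein of injured epithelium, rose by 1.31 ± 0.23. Not every member moved: Cxcl5 (0.06 ± 0.20), Il33 (0.10 ± 0.17) and Il1b (0.12 ± 0.31) did not pass. The list summed to 1697, 1392 and 1644 in the reprogrammed and 861, 763 and 744 in the untreated biliary libraries, against 1683 to 1967 in DDC biliary cells and 843 to 1074 in DDC hepatocytes. The risen members numbered 13 to 15 when any 1 library was left out, and leaving out both high-Cps1 libraries gave 15; the fit over all 15 libraries gave 7.

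Several receptors and feedback genes of the NF-kB pathway, which carries TNF signals to such genes, also moved up. Of 15 tested 8 rose (53.3%, against 10.6% of all genes) and none fell, with a median of 0.47. Nfkbia, the inhibitor that NF-kB itself induces, read 309.5, 359 and 369 in the reprogrammed and 273, 211 and 218 in the untreated biliary libraries. It rose by 0.57 ± 0.13 (adjusted p = 0.0036) without overlap. Tnfrsf1b, a TNF receptor, read 147, 143 and 186 against 102, 63.5 and 63.1 and rose by 1.07 ± 0.17. Bcl3, an NF-kB cofactor, read 282, 295 and 266 against 179, 179 and 162 and rose by 0.69 ± 0.12 (adjusted p = 0.00038), and the TNF-induced Tnfaip2 rose by 1.11 ± 0.22. The subunit genes themselves did not pass: Rela differed by 0.27 ± 0.14, Nfkb1 by 0.19 ± 0.15, Nfkb2 by 0.11 ± 0.15 and Relb by 0.18 ± 0.14. Tnfaip3, another feedback gene of the list, did not pass either, nor did Nfkbiz and Ripk2. With any 1 library left out Tnfaip3 differed by -0.086 to 0.082. The number risen was 4 without reprogrammed library 1, 5 without untreated biliary library 2 or untreated biliary library 3, and 3 in the fit over all 15 libraries.

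TGF-beta and mesenchymal genes formed another group that leaned up, with 12 of 22 risen (54.5%, against 10.6% of all genes), none fallen and a median of 0.48. Ltbp2, a matrix protein of the latent TGF-beta binding family, read 146, 125 and 112 in the reprogrammed and 49.9, 43.04 and 34.6 in the untreated biliary libraries. It rose by 1.57 ± 0.17 (adjusted p = 1.2e-06) with no overlap. Tgfbi, named for its induction by TGF-beta, read 47.7, 34.99 and 61.8 against 16.2, 14.8 and 14.8 and rose by 1.56 ± 0.23. The ligand Tgfb2 read 344, 337 and 387 against 202, 243 and 219 and rose by 0.69 ± 0.12 (adjusted p = 0.00045), while Tgfb1 (0.44 ± 0.16, adjusted p = 0.064) and Tgfb3 (-0.18 ± 0.16) did not pass. Of the receptors Tgfbr2 rose by 0.95 ± 0.18 and Tgfbr1 did not pass (-0.25 ± 0.14). The list also holds Vim (0.67 ± 0.18), Zeb2 (0.62 ± 0.14), Snai1 (0.83 ± 0.21) and Cdh2 (0.49 ± 0.13), genes used as signs of a mesenchymal state, which rose. Of the same kind, Snai2 (0.57 ± 0.21), Zeb1 (0.31 ± 0.14), Twist1 (-0.26 ± 0.29) and Fn1 (0.27 ± 0.15) did not pass. Leaving out single libraries ended the call at Vim (reprogrammed libraries 1 or 2 or untreated biliary library 3, adjusted p up to 0.094), Cdh2 (reprogrammed library 1 or untreated biliary library 3, up to 0.071) and Snai1 (untreated biliary library 2, 0.052). At Vim the DDC biliary libraries read 39.99 to 51.3, the untreated biliary ones 52.9, 55.7 and 38.95 and the reprogrammed ones 83.2, 90.3 and 63.3. The risen members numbered 8 to 13 when any 1 library was left out, with 8 without reprogrammed library 1 or untreated biliary library 3, and 4 in the all-library fit. Gene ends alone gave 4 risen of 21 tested and gene bodies alone 8 of 22. At gene ends Smad3 and Itgav, which had risen here, changed sign.

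Stress factors of the AP-1 family split. Of 14 tested 4 rose (28.6%, against 10.6% of all genes) and 2 fell (14.3%, against 7.2%), with a median of 0.02. Atf3, a stress-induced repressor, read 621, 591 and 603 in the reprogrammed and 1150.5, 1175 and 1489 in the untreated biliary libraries. It fell by 1.06 ± 0.12 (adjusted p = 2.3e-06) with no overlap. Of 8 regions tested at Atf3, however, 3 rose and 1 fell. The fallen region covers the gene start, is 25748 bp wide and read 511, 488 and 494 against 1075, 1082 and 1390. Jun read 409, 470.1 and 457 against 594, 554 and 679 and fell by 0.45 ± 0.12. Against these, Batf rose by 0.91 ± 0.24 and the small Maf genes Mafg and Maff by 0.58 ± 0.14 and 0.53 ± 0.14, while Fosl2 rose by 0.39 ± 0.12. Without reprogrammed library 1 none of the 4 rises passed (adjusted p 0.054 for Mafg, 0.088 for Batf, 0.099 for Maff and 0.13 for Fosl2), nor did Jun (0.060). Jun also lost its call without untreated biliary library 3 (0.087), and Fosl2 without reprogrammed library 3 or untreated biliary libraries 2 or 3 (0.075 to 0.11). Regions at gene ends alone gave -0.27 for Batf. Fos, Fosb and Egr1, other immediate-early genes, did not pass (-0.31 ± 0.13, -0.18 ± 0.13 and -0.07 ± 0.12). The list summed to 3437 to 3819 in the reprogrammed and 4249 to 4787 in the untreated biliary libraries.

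Targets of YAP, the effector of the Hippo pathway that is active in ducts, moved both ways: 3 of 20 rose (15%, against 10.6% of all genes), 4 fell (20%, against 7.2%) and the median was 0.11. The fallen numbered 1 on the deposited scale and without reprogrammed library 2, untreated biliary library 2 or untreated biliary library 3. Igfbp3, an IGF-binding protein, read 54.8, 40.2 and 56.5 in the reprogrammed and 17.00, 11.9 and 8.88 in the untreated biliary libraries and rose by 1.95 ± 0.25 (adjusted p = 1.1e-05). Nt5e, the ectonucleotidase CD73, rose by 0.83 ± 0.18 and Ccn2 (CTGF) by 0.56 ± 0.13. Ankrd1 read 178, 113 and 161 against 198, 264 and 315, the reprogrammed libraries all lower, and fell by 0.78 ± 0.17 (adjusted p = 0.0023). Ccn1 (CYR61) read 482, 368 and 497 against 498, 630.4 and 721 and fell by 0.45 ± 0.14, though of 7 regions tested there 2 rose and 1 fell. The call for Ccn1 was lost without reprogrammed library 2 (adjusted p = 0.15), untreated biliary library 2 (0.11) or untreated biliary library 3 (0.18). Amotl2 and Dock5 fell by 0.33 ± 0.11 and 0.48 ± 0.17, and lost their calls on leaving out any library but, for Dock5, reprogrammed library 3 (0.070 to 0.18). Without reprogrammed library 2 Dock5 differed by -0.31.

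Of 18 Notch pathway genes, the pathway that sets duct fate, 4 rose (22.2%, against 10.6% of all genes) and 1 fell (5.56%, against 7.2%), with a median of 0.12. Nrarp, a feedback inhibitor that Notch induces, read 141, 123 and 118 in the reprogrammed and 91.1, 79.9 and 80.4 in the untreated biliary libraries and rose by 0.60 ± 0.14 (adjusted p = 0.0049). The receptor-modifying enzymes Lfng and Mfng rose by 0.67 ± 0.17 and 0.91 ± 0.31, and the ligand Dll1 by 0.52 ± 0.15. Jag1, the ligand whose loss depletes ducts, read 163, 159 and 179 against 207, 239 and 228 and fell by 0.42 ± 0.13. The target Hes1 (-0.08 ± 0.12) and the receptors Notch1 (0.01 ± 0.16) and Notch2 (-0.12 ± 0.13) did not pass. Without reprogrammed library 1 or untreated biliary library 3 only 1 member rose and none fell; there Lfng had adjusted p of 0.081 and 0.064, Mfng 0.25 and 0.18, Dll1 0.050 and 0.086 and Jag1 0.080 and 0.084. Mfng also lost its call without reprogrammed library 2 (0.13), Dll1 without reprogrammed library 3 (0.090), and Dll1 and Jag1 without untreated biliary library 2 (0.12 for each).

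Among 18 EGF ligands and growth factor receptors 2 rose (11.1%, near the 10.6% of all genes) and 3 fell (16.7%, against 7.2%), with a median of -0.01. Pdgfb, a growth factor for stellate cells, read 172, 145 and 201 in the reprogrammed and 99.4, 59.02 and 65.4 in the untreated biliary libraries, a rise of 1.22 ± 0.17 (adjusted p = 3.8e-05). Egf read 59.5, 61.8 and 78.2 against 114, 124 and 131 and fell by 0.88 ± 0.15 (adjusted p = 0.00028). The receptors Fgfr3 and Igf1r fell by 0.73 ± 0.16 and 0.59 ± 0.12, the reprogrammed libraries lying below the untreated ones at both. Egfr (0.27 ± 0.15), Erbb2 (-0.22 ± 0.22) and Met (-0.01 ± 0.13) did not pass.

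Several integrin, laminin and collagen genes rose, while no tight-junction gene of this list passed. Junction genes outside the list did pass: Cldn4, counted among biliary identity genes, rose, and Ildr1, given below, fell. Of 24 junction and basement membrane genes 6 rose (25%, against 10.6% of all genes) and 1 fell (4.17%, against 7.2%), with a median of 0.03. Col17a1, a hemidesmosome collagen, read 31.02, 27.1 and 26.5 in the reprogrammed and 8.69, 6.56 and 5.47 in the untreated biliary libraries. It rose by 1.90 ± 0.27 (adjusted p = 3.7e-05) and read 16.1 to 24.9 in DDC biliary cells. Col18a1 rose by 0.63 ± 0.14 and Lama5, a laminin chain, by 0.46 ± 0.13. Itga6, the laminin-binding integrin, read 84.9, 76.2 and 80.5 against 124, 131 and 128 and fell by 0.66 ± 0.14 (adjusted p = 0.0018). Cldn3 (-0.07 ± 0.13), Ocln (-0.15 ± 0.13), Tjp1 (-0.04 ± 0.13) and Cgn (0.19 ± 0.14) did not pass. With gene ends alone 2 members rose and 2 fell, and in the fit over all 15 libraries none passed. The risen numbered 2 without reprogrammed library 1, 3 without untreated biliary library 3 and 4 without untreated biliary library 2 (6 here). Lama5 lost its call without each of these (adjusted p = 0.10, 0.059 and 0.058).

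Genes of mucosal and skin barriers, a list also chosen with earlier results known, leaned up. Of 17 tested 9 rose (52.9%, against 10.6% of all genes) and 1 fell (5.88%, against 7.2%), with a median of 0.80. Another 5 of the 22 listed genes had no region tied to them. Msln, mesothelin, read 52.5, 27.5 and 45.2 in the reprogrammed and 13.2, 9.84 and 4.78 in the untreated biliary libraries, a rise of 2.10 ± 0.31. Sprr1a, a cross-linked protein of stressed surface epithelia, read 29.3, 32.9 and 29.2 against 4.53, 9.43 and 8.66 and rose by 1.93 ± 0.28 (adjusted p = 4.9e-05). S100a6, a calcium-binding protein, read 73.9, 68.4 and 105 against 24.2, 23.8 and 33.7 and rose by 1.56 ± 0.20 (adjusted p = 1.2e-05). Il1f6, the cytokine interleukin 36 alpha, read 25.2, 7.53 and 13.03 against 1.51, 0 and 2.73 and rose by 2.80 ± 0.46, with only 16 reads over the 3 untreated libraries. Slpi, a secreted protease inhibitor, rose by 1.81 ± 0.37, the trefoil gene Tff1 by 2.53 ± 0.48 and Pglyrp4, which binds bacterial cell wall, by 2.21 ± 0.45. Pigr, the carrier of antibodies into bile, ran the other way. It read 21.5, 15.97 and 21.9 against 52.1, 37.3 and 35.99 and fell by 1.04 ± 0.22 (adjusted p = 0.0022), with DDC biliary libraries at 15.8 to 22.5. DDC biliary cells read 56.1 to 94.7 at Msln, 26.8 to 36.1 at Sprr1a and 75.3 to 129 at S100a6, in each case above every untreated biliary library.

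**Figure D3:**
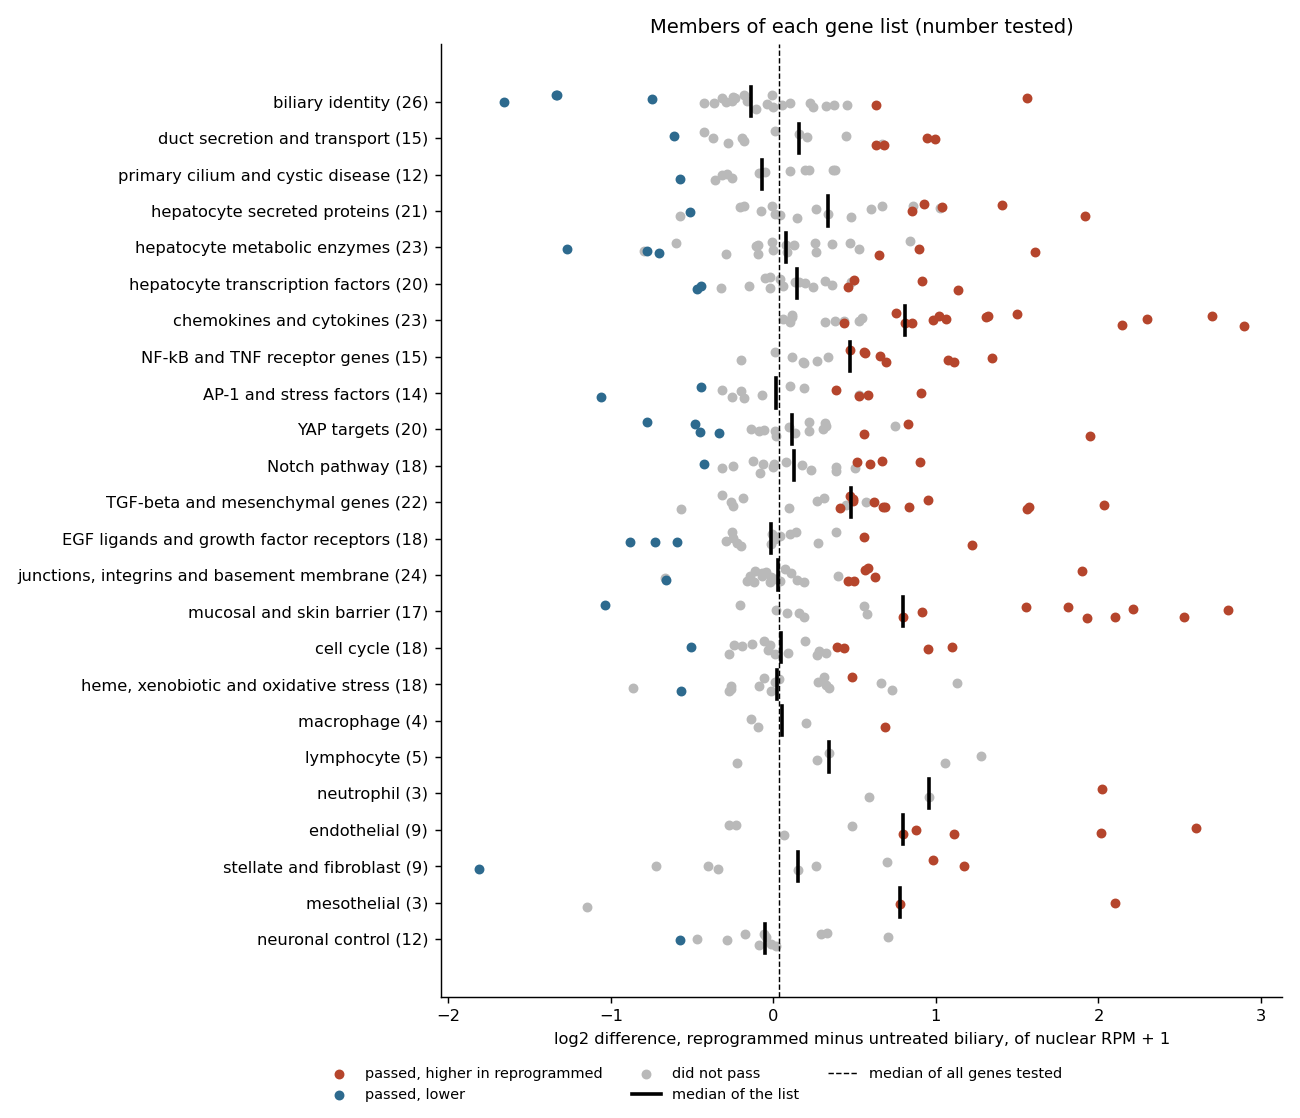
Each point is a tested member of 1 of 24 gene lists, placed by its log2 difference, reprogrammed minus untreated biliary, with red and blue for members that passed higher and lower and grey for the rest. Black bars are list medians and the dashed line is the median of all genes (0.04). Neutrophil, chemokine, mucosal barrier, endothelial, mesothelial, TGF-beta and NF-kB lists have medians of 0.47 to 0.96, while biliary, cilium, AP-1 and junction lists lie near the line.

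Promoters are shown for 2 genes that rose, picked because they hold AP-1 letters. The other promoters under a risen region among the genes chosen by the naming rule hold none. The windows are from RefSeq (GRCm38.p6), written 5′ to 3′ along the gene, and capitals mark each TGANTCA match. Sprr1a lies on the minus strand at chr3:92485832-92486131, with matches that begin 146 and 116 bases before the start. Cldn4 lies on the minus strand at chr5:134946885-134947184, with matches 240 and 158 bases before the start.
Sprr1a promoter: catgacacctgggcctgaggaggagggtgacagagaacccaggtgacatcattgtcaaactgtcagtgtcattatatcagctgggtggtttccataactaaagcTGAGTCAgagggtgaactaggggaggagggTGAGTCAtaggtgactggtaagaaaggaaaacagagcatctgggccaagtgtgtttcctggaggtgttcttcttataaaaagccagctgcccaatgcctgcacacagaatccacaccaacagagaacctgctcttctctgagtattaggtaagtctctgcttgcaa
Cldn4 promoter: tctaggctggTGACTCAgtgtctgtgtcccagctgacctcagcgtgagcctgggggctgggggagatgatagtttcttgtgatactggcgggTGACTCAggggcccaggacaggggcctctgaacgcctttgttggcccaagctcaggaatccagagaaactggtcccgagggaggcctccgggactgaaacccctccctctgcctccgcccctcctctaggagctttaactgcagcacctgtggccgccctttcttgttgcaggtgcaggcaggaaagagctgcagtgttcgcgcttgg
The region over the Sprr1a window read 24.6, 29.1 and 21.7 in the reprogrammed and 1.13, 3.69 and 5.01 in the untreated biliary libraries, a rise of 2.73 ± 0.35 (adjusted p = 4.3e-06). The region over the Cldn4 window is 9181 bp wide and touches a neighbour, Mettl27, to which it was tied, so it is not part of the Cldn4 value given above. It read 94.6, 68.2 and 91.7 against 47.6, 56.2 and 48.8 and rose by 0.72 ± 0.18. Over all 32817 promoter windows 7.81% held TGANTCA on either strand. The share was 13.0% (121 of 933) of windows under a region that rose, 4.86% (54 of 1112) under a region that fell and 5.50% (787 of 14300) under a tested region that did not pass. Windows under no tested region held it in 9.73% (1602 of 16472). For GGAATG, the TEAD motif core, the shares were 14.7% of all windows, 15.97% under risen and 12.7% under fallen regions. For NF-kB letters (GGGANNTTC) they were 4.93% under risen, 4.14% under fallen and 3.65% under regions that did not pass. For C/EBP letters (TTGCNNAA) they were 11.6%, 10.25% and 8.57%. Under risen and fallen regions an HNF1 half-site (GTTAAT) stood in 5.25% and 5.22%. HNF4 letters (CAAAGTCCA) stood in 0.429% (4 of 933) and 0.180% (2 of 1112), and in 0.5175% (74 of 14300) under regions that did not pass. GRHL letters (AACCGGTT) stood in 0.107% (1 of 933), 0.540% (6 of 1112) and 0.196% (28 of 14300). Under risen and fallen regions the shares of these 2 motifs rest on very few windows. A match of letters describes the sequence and does not show that a factor binds there.

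Of 18 cell cycle genes 4 rose (22.2%, against 10.6% of all genes) and 1 fell (5.56%, against 7.2%), with a median of 0.05. The risen numbered 1 without reprogrammed library 1 and 2 without any other single library except untreated biliary library 1. Cdk6, a kinase of G1 phase, read 238, 176 and 186 in the reprogrammed and 102, 95.9 and 80.4 in the untreated biliary libraries, all reprogrammed libraries higher, and rose by 1.10 ± 0.15 (adjusted p = 1.9e-05). Cdkn2a, the locus of the cell cycle inhibitors p16 and Arf, read 35.7, 36.5 and 24.6 against 17.8, 14.3 and 15.9 and rose by 0.95 ± 0.23, with adjusted p = 0.061 without reprogrammed library 1. Ccnd1 and Cdkn1a (p21) rose by 0.39 ± 0.14 and 0.44 ± 0.15 and Ccnb1 fell by 0.51 ± 0.18, each near the threshold. Ccnd1 and Cdkn1a lost their calls on leaving out any library but untreated biliary library 1 (adjusted p 0.051 to 0.22), and Ccnb1 without reprogrammed libraries 1 or 3 or untreated biliary libraries 2 or 3 (0.15 to 0.20). Mki67, the proliferation marker, did not pass (-0.03 ± 0.17). Of 18 heme, xenobiotic and oxidative stress genes, 1 rose and 1 fell (5.56% each). Hmox1, heme oxygenase, read 115, 125 and 117 against 84.6, 84.4 and 85.4 and rose by 0.48 ± 0.14. Abcb1a, a drug exporter, read 80.01, 122 and 127 against 136, 193 and 156 and fell by 0.57 ± 0.17. Both lost the call without reprogrammed library 1 (0.052 and 0.19), untreated biliary library 2 (0.066 and 0.15) or untreated biliary library 3 (0.057 and 0.058), and without reprogrammed library 1 Abcb1a differed by -0.36. Alas1 (0.31 ± 0.23) and Fech (0.33 ± 0.14), enzymes of heme synthesis that the DDC diet touches, did not pass. Without untreated biliary library 1, 4 genes of this list rose.

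Markers of other liver cells were measured alongside. Over all genes 10.6% rose and 7.2% fell. Endothelial genes moved with the comparison: 5 of 9 rose (55.6%) and none fell, with a median of 0.80. Their summed level was 219 to 299.99 in the reprogrammed and 124 to 159 in the untreated biliary libraries. Stab1, a scavenger receptor of sinusoidal endothelium, read 21.8, 20.6 and 25.4 against 3.78, 2.46 and 2.51 and rose by 2.60 ± 0.31 (adjusted p = 5.1e-06), against 25.9 to 31.1 in DDC hepatocytes. Stab2, Vwf and Tek rose by 1.11 ± 0.22, 0.88 ± 0.17 and 2.02 ± 0.39, while Cdh5 (0.48 ± 0.28), Kdr (0.06 ± 0.35) and Lyve1 (-0.27 ± 0.41) did not pass. The macrophage markers Adgre1, Clec4f and Lyz2 had no region. Of the other 4, Cd14 rose by 0.68 ± 0.22, a call lost without reprogrammed library 1 (adjusted p = 0.24), untreated biliary library 2 (0.057) or untreated biliary library 3 (0.079). Cd68 (0.20 ± 0.17) and Csf1r (-0.09 ± 0.19) did not pass, and the list summed to 126 to 167 and 121 to 136. None of 5 lymphocyte markers tested passed, though 1 rose without reprogrammed library 2 and 2 without untreated biliary library 1 (summed levels of 12.7 to 22.9 against 6.83 to 21.2). The neutrophil list summed to 18.3 to 27.96 against 7.93 to 11.1, and 1 of 3 tested, Csf3r, the receptor for G-CSF, rose by 2.02 ± 0.38 (2 rose without untreated biliary library 1). Of 9 stellate and fibroblast genes 2 rose (22.2%) and 1 fell (11.1%), with 3 fallen without untreated biliary library 1. Col1a1 read 113, 107 and 88.5 against 50.6, 40.99 and 43.1 and rose by 1.18 ± 0.16 (adjusted p = 2.6e-05), and Des, another of these, rose by 0.98 ± 0.28 but gave -0.28 at gene ends and -0.81 within gene bodies, and lost its call without reprogrammed library 1 (0.12), reprogrammed library 2 (0.066) or untreated biliary library 3 (0.11). Acta2, the smooth muscle actin of myofibroblasts, read 8.11, 4.27 and 7.99 against 26.1, 22.5 and 28.2 and fell by 1.81 ± 0.29 (adjusted p = 0.00013). Wt1, a mesothelial factor, rose by 0.78 ± 0.17, Msln, given above, is also a mesothelial marker, and Upk1b read 0.438, 0.509 and 0 against 1.13, 1.64 and 3.19 and did not pass. The mesothelial list summed to 105 to 129 and 48.3 to 59.7. Chemokine, TGF-beta and barrier genes rose in the same libraries in which the endothelial, neutrophil and mesothelial lists were higher, and the part of such cells in those results was not tested. As a control, 1 of 12 neuronal genes passed, with none risen and 8.33% fallen, near the 7.2% of all genes. That gene, Map2, fell by 0.58 ± 0.15, with adjusted p = 0.054 without untreated biliary library 2. Without reprogrammed library 2 or untreated biliary library 1, 2 neuronal genes fell.

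The genes with the widest differences were mostly genes with 1 or 2 regions near them, where a single region can set the value. Olfr543, an olfactory receptor gene, read 23.3, 16.4 and 20.2 in the reprogrammed and 0.756, 0.820 and 1.37 in the untreated biliary libraries, a rise of 3.40 ± 0.35. H2-M2, a nonclassical MHC gene, rose by 3.17 ± 0.34 and Lce1m, of the cornified envelope, by 3.02 ± 0.29. Then came Pate1 (2.95 ± 0.41), Fam124b (2.87 ± 0.26), Sh3bp5l (2.86 ± 0.28), Ucn3 (2.85 ± 0.39) and Cpa4 (2.71 ± 0.41), with Ccl2 and Il1f6 completing the 10 widest rises among genes of 5 nuclear RPM or more in the higher group. The widest fall was at Trappc11, of the TRAPP tethering complex, which read 1.64, 2.24 and 2.10 against 25.7, 27.9 and 23.5 and fell by 3.16 ± 0.31. Arhgef38, a guanine nucleotide exchange factor, was the best covered of the 10 widest falls. It read 26.6, 23.8 and 25.6 against 113, 138 and 144 over 7 regions and fell by 2.32 ± 0.16 (adjusted p = 7.0e-09), with DDC biliary cells at 65.9 to 81.2 and DDC hepatocytes at 3.41 to 14.3. Its neighbour Ints12, an Integrator subunit, fell by 2.40 ± 0.39, and Tacr3, the neurokinin B receptor on the same chromosome, by 2.38 ± 0.39. Ildr1, of tricellular junctions, read 14.1, 9.97 and 10.7 against 50.3, 62.7 and 62.4 and fell by 2.24 ± 0.22 (adjusted p = 4.3e-07). The other 5 were Olfr420 (-2.72 ± 0.43), Fads2b (-2.52 ± 0.35), Oprk1 (-2.41 ± 0.34), Krtap16-1 (-2.37 ± 0.40) and Ttc37 (-2.29 ± 0.45).

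The Arhgef38 promoter carried the steepest promoter fall among the genes named here. Its region read 9.43, 11.6 and 11.1 in the reprogrammed and 86.1, 103 and 115 in the untreated biliary libraries, and fell by 3.12 ± 0.21 (adjusted p = 4.8e-10), with no overlap. The RefSeq window (GRCm38.p6, chr3:133234900-133235199, minus strand) has no TGANTCA match and so no capitals.
Arhgef38 promoter: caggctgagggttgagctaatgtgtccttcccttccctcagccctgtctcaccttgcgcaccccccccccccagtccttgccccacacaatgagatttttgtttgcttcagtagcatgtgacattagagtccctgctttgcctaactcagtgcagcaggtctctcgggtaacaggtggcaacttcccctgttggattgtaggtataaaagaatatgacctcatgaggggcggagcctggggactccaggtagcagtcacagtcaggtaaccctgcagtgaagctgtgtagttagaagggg

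Over all regions tested, 12962 of 75099 passed (17.3%), with 8286 higher (11.0%) and 4676 lower (6.23%). On the deposited scale 76.3% of the regions that passed were higher, against 63.9% here. Without reprogrammed library 1 there were 7258 calls, and without untreated biliary library 3 there were 8327. Changes were commoner away from gene ends. Within 1 kb of a gene end 5.76% of 15024 regions rose and 5.98% fell, with a median of -0.01. Inside genes 11.1% of 32313 rose and 5.89% fell, at 1 to 50 kb from a gene 13.6% of 17941 rose and 5.28% fell, and farther out 14.1% of 9821 rose and 9.45% fell. Regions near gene ends were wider and better covered (median 1718 bp and 25.6 nuclear RPM, against 682 to 800 bp and 3.06 to 3.31 elsewhere), so the shares rest on unequal depth. The widest rise was in a region 210900 bp from any protein-coding gene, chr4:131166376-131167413, which read 35.8, 39.5 and 22.9 against 0.756, 0 and 0.911 and rose by 4.46 ± 0.37. Next came a region inside Ptprn2, chr12:116776229-116777057, with 35.2, 26.9 and 37.2 against 0.756, 0.410 and 0.911 and a rise of 4.33 ± 0.34. Others lay near Vav3 (4.25 ± 0.40), Trappc10 (4.18 ± 0.40) and Dad1 (4.11 ± 0.38) and inside Rab30 (4.12 ± 0.38). The widest fall was 412597 bp from any protein-coding gene, chr6:76467984-76469040, which read 0.877, 1.42 and 0.841 against 27.96, 31.97 and 32.6 and fell by 3.97 ± 0.33. A region 20999 bp from C2cd4b, chr9:67781932-67783672, read 3.95, 2.44 and 2.94 against 30.98, 70.1 and 49.7 and fell by 3.58 ± 0.31. In each of these 4 regions with listed values no library of 1 group reached into the other.

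**Figure D4:**
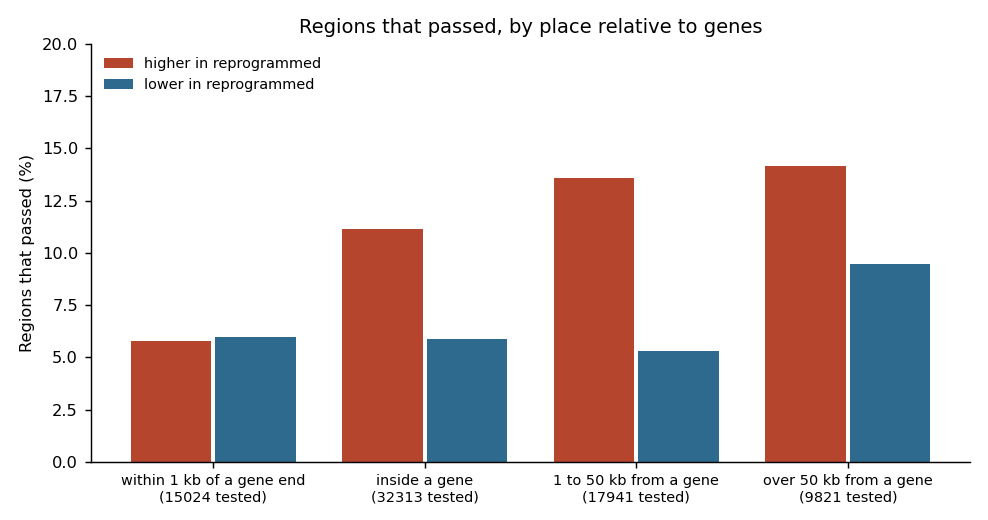
Bars give the percentage of regions tested that passed and were higher (red) or lower (blue) in reprogrammed cells, by place relative to protein-coding genes. Near gene ends the shares are about equal (5.76% and 5.98%), and elsewhere the higher share is the larger.

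As a measure of how far the groups stand apart, libraries were thinned to 1191409 nuclear reads each and compared over 35045 regions by the root mean square difference in log2. Pairs of 1 reprogrammed and 1 untreated biliary library were 1.02 to 1.25 apart (median 1.13), beyond the 0.704 to 0.837 within reprogrammed and 0.743 to 0.885 within untreated biliary libraries. Reprogrammed libraries were 0.743 to 0.921 from DDC biliary libraries and 1.22 to 1.54 from DDC hepatocytes. The mean distance of a library to the 3 untreated biliary ones was 1.11, 1.09 and 1.16 for reprogrammed cells (1.12 ± 0.037, SD, n = 3) and 1.15, 1.01 and 1.15 for DDC biliary cells (1.10 ± 0.078, SD, n = 3). The values of these 2 groups overlapped, and the difference of 0.020 gave p = 0.8 in an exact two-sided permutation test, where 3 against 3 libraries cannot go below 0.1. A p of this size does not show that the distances are equal.

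Lineage genes were taken from libraries outside this comparison. Of 16151 genes tested between DDC hepatocytes and DDC biliary cells, 2919 were higher in the hepatocytes (18.1%) and 3551 in the biliary cells (22.0%). Both of those groups had the DDC diet, so the genes that differ between them can include genes of the diet response. Lineage and diet cannot be told apart in the shares and index below. Reprogrammed cells differed from untreated biliary cells on both sides of this divide. Of 2841 hepatocyte-side genes tested here 363 rose (12.8%) and 168 fell (5.91%), with a median of 0.10. Of 3525 biliary-side genes 630 rose (17.9%) and 356 fell (10.1%), with a median of 0.09. Among the 9561 genes on neither side 7.34% rose and 6.56% fell. A lineage index, the mean log2 level of hepatocyte-side minus biliary-side genes, was -0.43, -0.35 and -0.06 in the reprogrammed and -0.03, -0.49 and -0.43 in the untreated biliary libraries. Reprogrammed library 3 and untreated biliary library 1 were again the high ones, and the groups overlapped (-0.28 ± 0.20 and -0.31 ± 0.25, SD, n = 3 each). The difference of 0.03 gave p = 0.8 in an exact two-sided permutation test whose smallest possible p is 0.1. It ranged from -0.08, without reprogrammed library 3, to 0.18, without untreated biliary library 1, and was 0.06 without both.

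**Figure D5:**
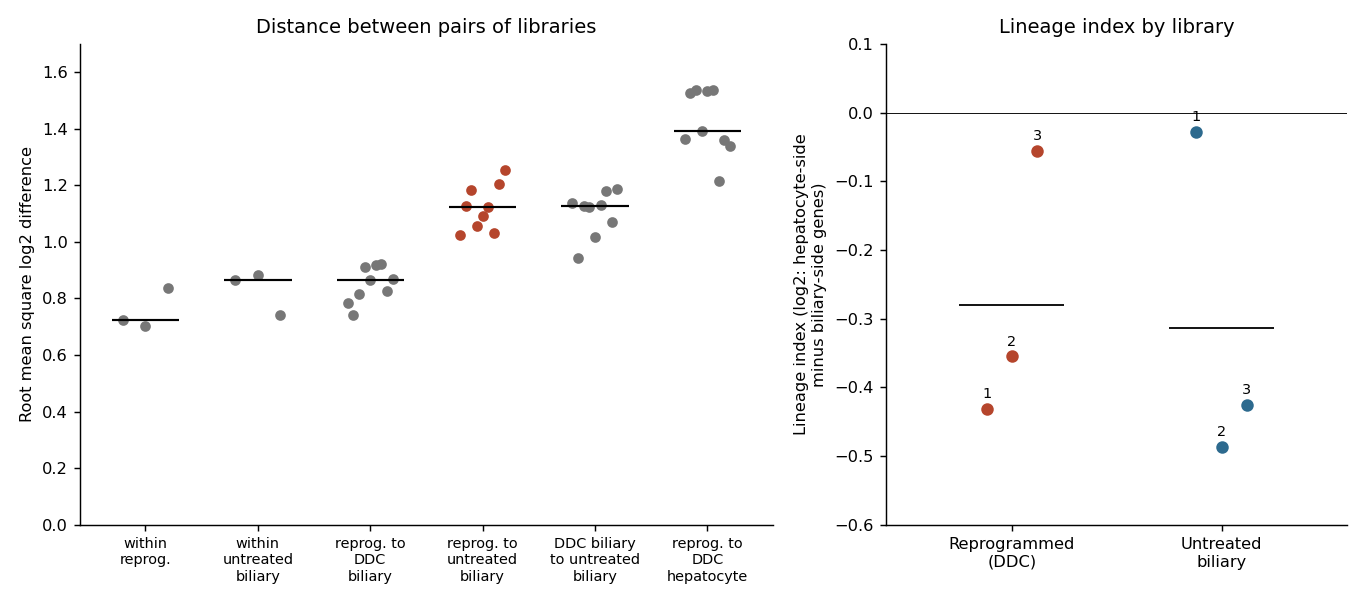
Left, root mean square log2 difference between pairs of thinned libraries (1 point a pair, bar at the median); pairs of reprogrammed and untreated biliary libraries (red) have a median of 1.13, above the pairs within each group. Right, the lineage index (log2, hepatocyte-side minus biliary-side genes) of each numbered library with a bar at the group mean; the groups overlap, with means of -0.28 and -0.31.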

How the data were processed

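ATAC-seq of 15 mouse liver libraries was deposited as 1 table of regions by libraries, of which the 6 named above were compared. Bowtie2, SAMtools, MACS2, bedtools and mm10 are named per the submitters' processing notes; the sources used here give neither versions nor settings. The deposited table calls its values TPM, but they are RPM made by the authors: reads scaled to a total of 1000000 over all regions, not scaled by region length. The low values were whole multiples of 1 read in 100% of cases (tolerance 0.02 reads), so whole reads were recovered. The table holds 93217 regions, of 179 to 48527 bp (median 706 bp).

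From these the 2 mitochondrial regions were dropped and each library was rescaled to nuclear RPM. In all, 80441 regions (86.3%) were assigned to 16526 of the 21896 protein-coding genes in RefSeq by overlap with the body or, failing that, as the nearest gene within 50 kb. The annotation used carries no strand, so a gene end is either end, within 1 kb. Regions that touch several genes numbered 2441, and each was tied only to the gene it overlapped most. The main test was limma (3.58.1, R 4.3.3) with a mean trend on log2(nuclear RPM + 1), over the 6 libraries and all features with a mean of at least 1, with Benjamini-Hochberg adjustment at 0.05; folds of low features are understated on this scale. edgeR (4.0.16) and DESeq2 (1.42.0) were run as alternatives on the recovered reads. Tables were made with pandas 2.3.3, numpy 2.4.6 and Python 3.11.15, and figures with matplotlib 3.10.9. The tests were checked on simulated data, with known changes put into counts of 1 fixed spread setting for all genes. Simulated libraries of a group differed only in depth, so differences such as those of the 2 high-Cps1 libraries were not covered.

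The named genes are the 4 markers, up to 4 passing members of smallest adjusted p per direction in each list, and the 10 widest rises and falls among non-overlapping genes of at least 5 nuclear RPM in the higher group. Passing members named beyond these (Tnf, Ccl7, Csf1, Cxcl1, Vcam1, Lcn2, Tgfbr2, Vim, Zeb2, Snai1, Cdh2, Slpi, Tff1 and Pglyrp4) were chosen after their values were seen. Some genes that the rule picks are not reported here. The comparison and the 24 lists (391 entries, 372 with a region) were chosen with earlier results of these data known. The promoter windows come from RefSeq. Alternatives were the deposited scale, TMM, pseudocounts, filters, thinned reads, a block, leaving out libraries, other assignments of regions and a fit on all libraries.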

Additional observations from a re-analysis of the deposited data

How the results depend on the processing

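Gene calls (2854) numbered 2497 to 3264 under the other scalings, pseudocounts, filters, thinning, edgeR and DESeq2, 421 in the fit on all 15 libraries, 1454 with regions at gene ends only, and 1554 to 3772 when 1 library was left out. Region calls (12962) numbered 8430 with a filter at 5 nuclear RPM, 2128 in the fit on all 15 libraries, and 7258 to 16553 when 1 library was left out. The cause of these differences was not tested. Leaving out reprogrammed library 3 and untreated biliary library 1 together, chosen after seeing the data, gave 3678 genes and 12987 regions. With a replicate block, there were 3234 genes and 13335 regions, and no named gene lost its call. The deviations of same-numbered libraries from their group means correlated at -0.025, 0.065 and -0.122, and those of other pairs at -0.18 to 0.179. Means of 3 libraries tie these deviations to each other, so whether the numbers pair the samples cannot be told. Of 107 named genes that passed, 31 kept call and direction under each of the 20 alternatives that tested them, 72 lost the call under at least 1 with the same direction, and 4 reversed: regions at gene ends alone gave -0.33 for Kcnn4, -0.16 for Abcb11, -0.27 for Batf and -0.28 for Des, and regions in gene bodies alone gave -0.17 for Kcnn4 and -0.81 for Des; the cause was not tested. The untreated biliary libraries are the shallower, with 8.88% to 15.1% of regions at 0 reads against 1.71% to 4.12%, which limits what can be seen at weak regions.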
